A study of Mus musculus with 168 samples.

Results

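The gene described is Mir142, the gene of the microRNA miR-142, read by 1 probe set of the Affymetrix Mouse Gene 1.0 ST array. It was found by its gene symbol in the platform's probe annotation, where 1 probe set carries that symbol alone, and it is 1 gene of 19752 measured in the series. Mir142 was selected on its level, which was high 4 h after the last of 3 inhibitor treatments, so its values of that schedule are a description and carry no test. Other genes were tested at 4 h on the same arrays, which gives no separate support for Mir142.

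The series profiled sorted immune cells of male C57BL/6 mice, aged 6 weeks and gavaged with inhibitors of JAK kinases or with vehicle. These kinases pass signals from cytokine receptors to STAT transcription factors. The arrays came from 80 animals in 7 experiments, named by the leading code of their titles (J2, J3, J6, J8, J12, J23 and J25). Each array held RNA of 1 of 6 tissue and cell types, sorted straight into TRIzol.

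Spleen provided F4/80+ macrophages (MF, 33 arrays), FLT3+ dendritic cells (DC, 20 arrays), NK1.1+ natural killer cells (NK, 27 arrays), CD4+ T cells (T4, 39 arrays) and Ly6G+ granulocytes (GN, 16 arrays). The peritoneal cavity provided F4/80+ macrophages (peritoneal MF, 33 arrays), part of them also sorted for ICAM2. The inhibitors are known by code only (SB00513404, SB00526221, SB00526222, SB00526226 and SB00526228), and the labels used here give no doses. Inhibitor was given on 122 arrays, the acidic vehicle of 0.5% MC at pH 3 on 7 arrays and the plain vehicle of 0.5% MC on 39 arrays. Early arrays followed 1 treatment by 1.5, 3 or 6 h and late ones by 18, 19 or 28 h. A further schedule was 3 treatments and 4 h, and the prolonged schedule was 14, 15 or 28 treatments with collection after 14, 15, 17 or 18 h.

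The 20 arrays at 4 h came from 6 animals of experiment J2, all given inhibitor. There were 0 vehicle arrays at 4 h, and the J2 vehicle animals had 14 treatments and were collected after 14 h. The hour, the number of treatments and the inhibitor therefore cannot be told apart in that contrast. In bulk samples of this kind, a change in RNA per cell and a change in the share of cells that hold the RNA cannot be told apart either.

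miR-142 is made from a hairpin in a primary transcript that Drosha and Dicer trim to a short duplex. One strand of it guides Argonaute proteins to messenger RNAs, mainly through the seed, the bases at the 5′ end that pair with the target. miR-142 is found throughout the blood lineages and in few other tissues, and mice that lack it have defects of lymphocytes, dendritic cells and platelets. The array was hybridised with cellular RNA and probes the gene, so its signal need not follow the mature microRNA.

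The sequences are shown because both arms of miR-142 are mature products and each has a seed of its own. In RefSeq's annotation of GRCm38.p6 the hairpin lies on the plus strand at chr11:87756864-87756927, and its 2 mature arms are in capitals here.
mmu-mir-142a hairpin: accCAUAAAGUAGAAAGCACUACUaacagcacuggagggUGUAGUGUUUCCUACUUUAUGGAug
In the mature sequences the capitals mark the seed, bases 2 to 8. The 5p arm lies at chr11:87756867-87756887 and the 3p arm at chr11:87756903-87756925.
mmu-miR-142a-5p: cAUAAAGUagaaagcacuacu
mmu-miR-142a-3p: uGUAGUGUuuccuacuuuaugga
Each of these seeds was held by 1 of the 1738 mature entries in the table, so no other listed microRNA shared either seed. RefSeq places a further microRNA gene, Mir142b, over the same hairpin on the minus strand at chr11:87756841-87756955. The strand that the probes read is not given in the sources used here, so signal of Mir142 and of Mir142b cannot be told apart.

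Values below are log2 of the deposited intensity, and differences are on that log2 scale. Array medians were 119.5 to 142.3 on the linear scale. Defining markers were at high levels in the types they define: Ncr1, a natural killer receptor, averaged 13.38 in NK, Cd3e, a T cell receptor chain, 12.56 in T4, Ly6g 13.03 in GN and Flt3 11.74 in DC. The spleen MF arrays went against their label. They carried Gata6, the factor that defines peritoneal macrophages, at 11.14 ± 0.27 (SD, n = 33), against 11.17 ± 0.23 in peritoneal MF (SD, n = 33), while Vcam1, a marker of splenic red pulp macrophages, was at 5.99. The name spleen MF is kept only as the label's. By their correlation with the other arrays of their type, 18 arrays stood apart (6 T4, 3 each of DC, MF and NK, 2 peritoneal MF and 1 GN).

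Over all arrays Mir142 was highest in granulocytes, at 10.11 ± 0.43 (SD, n = 16, range 9.53 to 10.83), where its median rank was percentile 92.3 of the array's probe sets. NK averaged 8.03 ± 1.10 (SD, n = 27, range 5.90 to 9.92) and T4 7.98 ± 0.97 (SD, n = 39, range 6.20 to 9.26). DC averaged 7.29 ± 1.02 (SD, n = 20, range 5.73 to 9.28), peritoneal MF 7.14 ± 0.47 (SD, n = 33, range 6.32 to 7.98) and spleen MF 6.90 ± 0.79 (SD, n = 33, range 5.36 to 8.19). The GN arrays had the narrowest range, and DC and both MF types lay near the middle of their arrays. The spread within NK, T4 and DC exceeded the distance between their means.

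**Figure D1:**
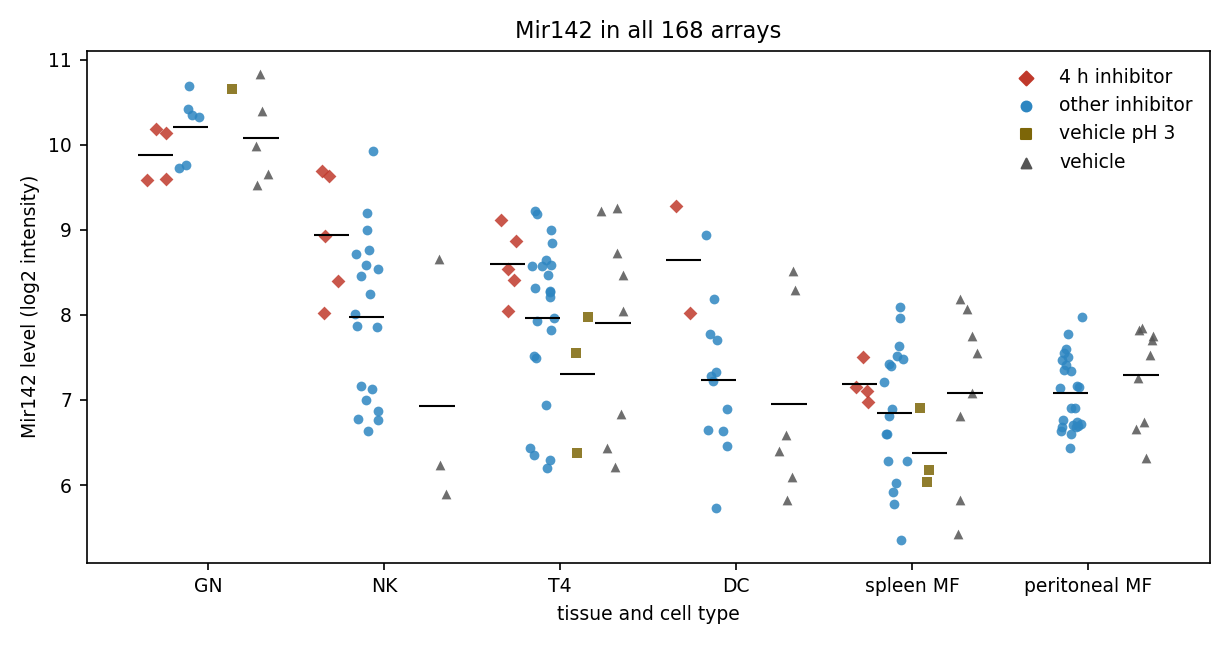
Mir142 level (log2 intensity, y axis) in every array by tissue and cell type. Within a type the columns run from 4 h inhibitor through other inhibitor and vehicle pH 3 to vehicle, and black bars are means. GN lie at 9.53 to 10.83, and the other types spread over 2 or more log2 units, except peritoneal MF.

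The order of types was tested on the 39 plain vehicle arrays, which hold no 4 h array, with limma and a term for experiment. GN exceeded every other type in the 5 pairs that include it. The GN minus NK difference was 2.66 (SE 0.52, adjusted p = 3.85e-05), and 65.4% of all genes passed in that pair. The differences were 2.61 against T4 (adjusted p = 7.14e-06, 74.6% of genes passed), 2.96 against DC (adjusted p = 1.14e-07, 72.8%), 2.92 against spleen MF (adjusted p = 1.84e-07, 78.4%) and 3.95 against peritoneal MF (adjusted p = 1.01e-05, 65.6%). In these pairs most genes differ, so the call alone does not set Mir142 apart.

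Among the other types 1 of 10 pairs passed, T4 minus peritoneal MF at 1.34 (SE 0.52, limma adjusted p = 0.0322, 46.9% of genes passed). That call was lost without the experiment term, where the difference was 0.65 (adjusted p = 0.2). NK minus T4 was -0.05 with a 95% interval of -1.15 to 1.05, and DC minus spleen MF was -0.03 (-0.85 to 0.78). Peritoneal MF minus spleen MF was -1.03 (-2.34 to 0.29), but 0.13 (-0.75 to 1.01) without the experiment term, so the place of peritoneal MF in the order turns with that term. The neighbours NK, T4, DC and spleen MF in vehicle animals therefore gave no call between them, although the intervals leave room for differences of over 1 log2 unit in some pairs.

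At 4 h the largest difference from vehicle was in NK, while the highest levels were in GN. The 5 NK arrays at 4 h had 9.69 and 9.63 under SB00526221, 8.02 under SB00526222, and 8.93 and 8.40 under SB00526226, against 6.24 and 5.90 in the J2 vehicle arrays. Prolonged inhibitor arrays of J2 had 7.16 and 7.0 (SB00526221), 6.76 (SB00526222), 6.87 (SB00526226) and 7.13, 6.63 and 8.46 (SB00526228). In J2 the 4 h arrays thus lay above both vehicle arrays, and all but the one at 8.02 and the one at 8.40 lay above every prolonged array. The fitted difference of 4 h minus vehicle was 2.60 (SE 0.45), a 6.07-fold difference, and it was 2.86 within J2.

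In T4 the 4 h arrays had 9.11 and 8.87 (SB00526221), 8.05 and 8.54 (SB00526222) and 8.41 (SB00526226), against 6.38 in the J2 array of the pH 3 vehicle and 6.21 in that of the plain vehicle. Prolonged inhibitor gave 6.35, 6.29 and 6.20 in J2, and 8.21 in the animal numbered 28, described further on. All 5 arrays at 4 h lay above both vehicle arrays of J2. The difference of 4 h minus vehicle was 2.33 (SE 0.34), a 5.02-fold difference.

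In DC the 2 arrays at 4 h had 8.02 (SB00526222) and 9.28 (SB00526226), against 6.40 and 6.09 in J2 vehicle. The prolonged arrays of J2 lay between these groups and reached into the 4 h range, at 6.89, 6.65, 6.46, 7.77, 7.33 and 8.19. The difference of 4 h minus vehicle was 2.34 (SE 0.60), a 5.07-fold difference that rests on 2 arrays.

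Spleen MF showed the smallest positive difference of the spleen types at 4 h. Its 4 h arrays had 6.98 (SB00526221), 7.51 and 7.10 (SB00526222) and 7.15 (SB00526226), against 6.18 and 6.04 in J2 arrays of the pH 3 vehicle and 5.43 in the only J2 array of the plain vehicle. That plain vehicle array is among those that stood apart. The difference of 4 h minus vehicle was 0.95 (SE 0.45), a 1.94-fold difference, but 1.76 within J2 and 0.59 without the arrays that stood apart.

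Granulocytes went the other way. Their 4 h arrays had 10.18 (SB00526221), 9.60 and 9.59 (SB00526222) and 10.14 (SB00526226), against 10.65 in the J2 pH 3 vehicle and 10.39 in the J2 plain vehicle. Prolonged inhibitor gave 9.76 and 10.69 in J2, a range that holds 2 of the 4 h arrays and lies above the other two. The difference of 4 h minus vehicle was -0.51 (SE 0.37). Granulocytes, the type with the highest Mir142, were thus the type in which it was not raised at 4 h.

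**Figure D2:**
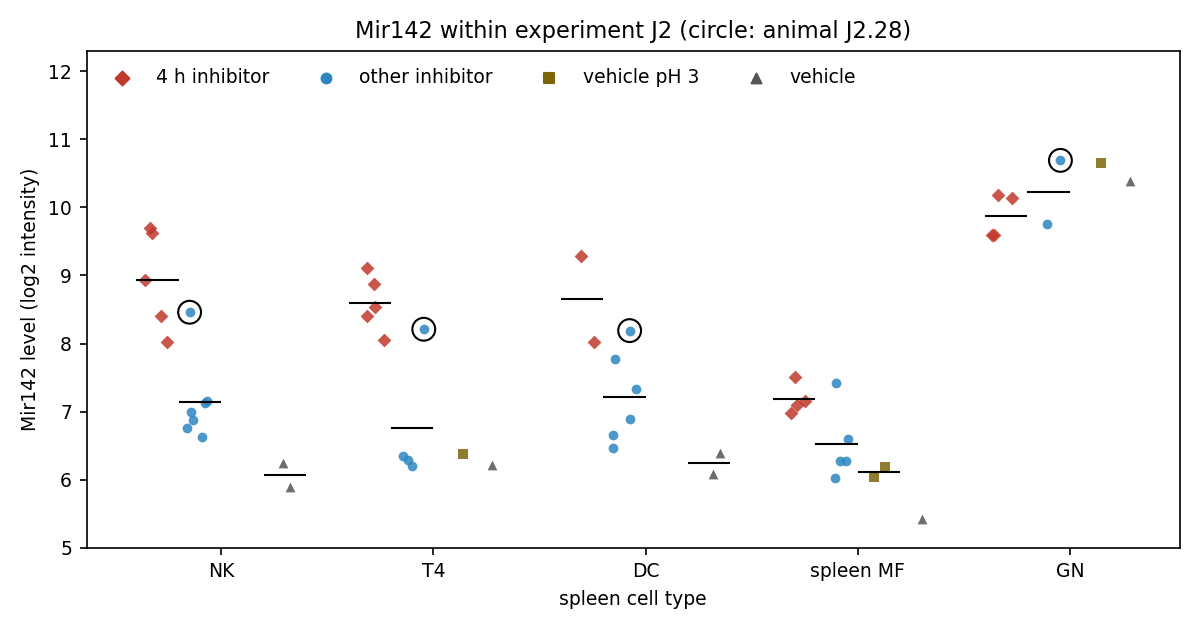
Mir142 level (log2 intensity, y axis) within experiment J2 by spleen cell type. Columns run from 4 h inhibitor to vehicle within each type, black bars are means and circles mark animal 28. The 4 h arrays of NK, T4, DC and spleen MF lie above the J2 vehicle arrays, and those of GN lie below them.

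Against prolonged arrays of the same compounds, which share the 4 h arrays with the contrast above, the 4 h differences were 2.1 (SE 0.38) in NK, 2.41 (SE 0.30) in T4, 2.0 (SE 0.65) in DC, 1.13 (SE 0.40) in spleen MF and -1.03 (SE 0.48) in GN. J2 has no prolonged GN array of these compounds, so the GN value compares experiments and rests on the experiment term, while the means differed by -0.33. In this contrast 1.42% of genes passed in NK. In each of NK, T4 and spleen MF the SB00526221, SB00526222 and SB00526226 arrays at 4 h were all above the J2 vehicle. In NK the SB00526221 arrays were the highest and the SB00526222 array the lowest, with 1 or 2 arrays for each compound. In DC and spleen MF that order did not hold, since no 4 h array of DC had SB00526221 and the SB00526221 array was the lowest of spleen MF.

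Beyond J2 the vehicle arrays overlapped the 4 h arrays in all 5 spleen types. Arrays at 4 h above the highest vehicle array of any experiment numbered 3 of 5 in NK, 1 of 2 in DC, 0 of 5 in T4, 0 of 4 in spleen MF and 0 of 4 in GN. The vehicle NK array of J6 had 8.7, and vehicle T4 arrays had 9.22 and 9.26 in J25, 8.7 and 6.44 in J8, 8.47 in J6 and 6.84 in J3. The 4 h T4 level of J2 was therefore reached in vehicle animals of other experiments.

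Mir142 differed between experiments in some types. The moderated F test of the experiment term, run on all schedules and chosen after seeing the data, gave F = 21.5 in T4 (limma adjusted p = 1.2e-06, 42.7% of genes passed), 11.7 in NK (adjusted p = 0.00352, 10.6%) and 7.91 in spleen MF (adjusted p = 0.00567, 26.5%). It did not pass in peritoneal MF (adjusted p = 0.0847, 19.7% of genes passed), DC (adjusted p = 0.331, 0.869%) or GN (adjusted p = 0.622, 0.0455%). NK under prolonged inhibitor had 7.86 to 9.92 in J8, 9.20 and 7.87 in J6, and 6.78 and 8.54 in J3, against 6.63 to 8.46 in J2. T4 under prolonged inhibitor had 8.28 to 9.22 in J25 and 6.94 to 8.47 in J8. Every NK array of J8 lay above all but 1 of the prolonged NK arrays of J2.

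**Figure D3:**
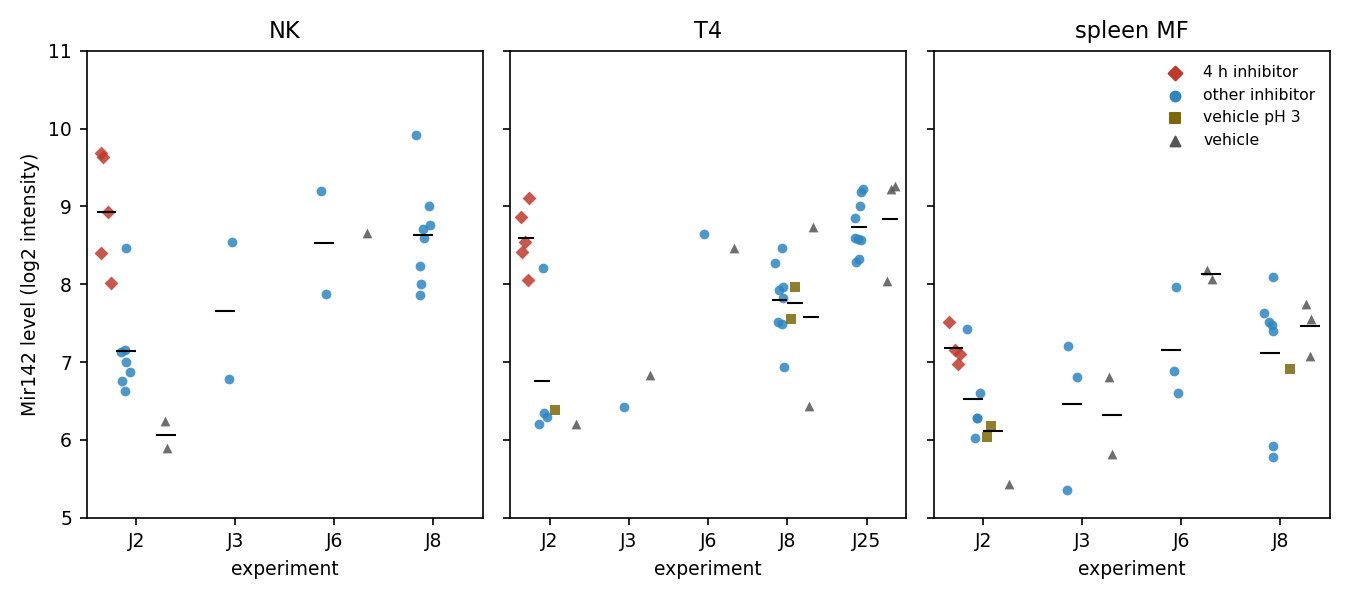
Mir142 level (log2 intensity, y axis) in NK, T4 and spleen MF by experiment, which the x axis gives. Within an experiment the columns run from 4 h inhibitor to vehicle, and black bars are means. The T4 arrays of J25 lie at 8.04 to 9.26, while the T4 vehicle arrays of J2 lie at 6.21 and 6.38.

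The prolonged schedule, which the choice of Mir142 did not use, gave no call in any spleen type. It shares its vehicle arrays with the 4 h contrast. Prolonged inhibitor minus vehicle was 0.56 in NK (95% interval -0.27 to 1.39, limma adjusted p = 0.997), with means of 7.97 ± 0.97 (SD, n = 19) under inhibitor and 6.93 ± 1.50 (SD, n = 3) under vehicle. Only 9 of these 19 arrays, in J2 and J6, have NK vehicle in their own experiment, so the gap between the means is partly between experiments. In T4 it was 0.01 (-0.41 to 0.43, adjusted p = 0.997), with 7.80 ± 0.95 (SD, n = 19) and 7.88 ± 1.34 (SD, n = 7). In DC it was 0.57 (-0.17 to 1.30, adjusted p = 0.978), with 7.23 ± 0.85 (SD, n = 12) and 6.95 ± 1.16 (SD, n = 6). Both of the larger estimates, in NK and DC, have intervals that hold 0, and the DC estimate was -0.19 with array weights.

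Spleen MF had a difference of -0.10 (-0.64 to 0.44, adjusted p = 1), with 6.85 ± 0.79 under inhibitor (SD, n = 18) and 7.09 ± 1.02 under vehicle (SD, n = 8). GN had 0.29 (-0.23 to 0.81, adjusted p = 0.768), with 10.21 ± 0.39 (SD, n = 6) and 10.08 ± 0.53 (SD, n = 5). Few genes passed at all in these contrasts: 0 of 10957 in NK, 0 of 11212 in T4, 0 of 10815 in DC, 1 of 11008 in spleen MF (0.00908%) and 3 of 10980 in GN (0.0273%). At an unadjusted p under 0.05 the counts were 418 genes in NK, 402 in T4 and 186 in DC. Whether the prolonged difference of Mir142 varied between the 5 types was tested with 1 moderated F test, and it did not pass (F = 0.95, adjusted p = 1, 0.113% of genes passed).

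Own-experiment vehicles gave a mixed picture for the prolonged schedule. In J2 inhibitor minus vehicle was 1.09 in spleen MF, 1.08 in NK, 0.97 in DC and 0.55 in T4, and -0.16 in GN. It was also below 0 in spleen MF of J6 (-0.98) and J8 (-0.34), in NK of J6 (-0.12), in DC of J3 (-0.04), in T4 of J25 (-0.51) and J3 (-0.41) and in GN of J6 (-0.44). Prolonged arrays above the vehicle mean of their own experiment numbered 8 of 9 in NK, 10 of 12 in DC, 11 of 18 in spleen MF, 9 of 19 in T4 and 4 of 6 in GN. The J2 vehicle arrays were among the lowest of each type but GN, and both the 4 h and the prolonged differences within J2 are set against them.

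**Figure D4:**
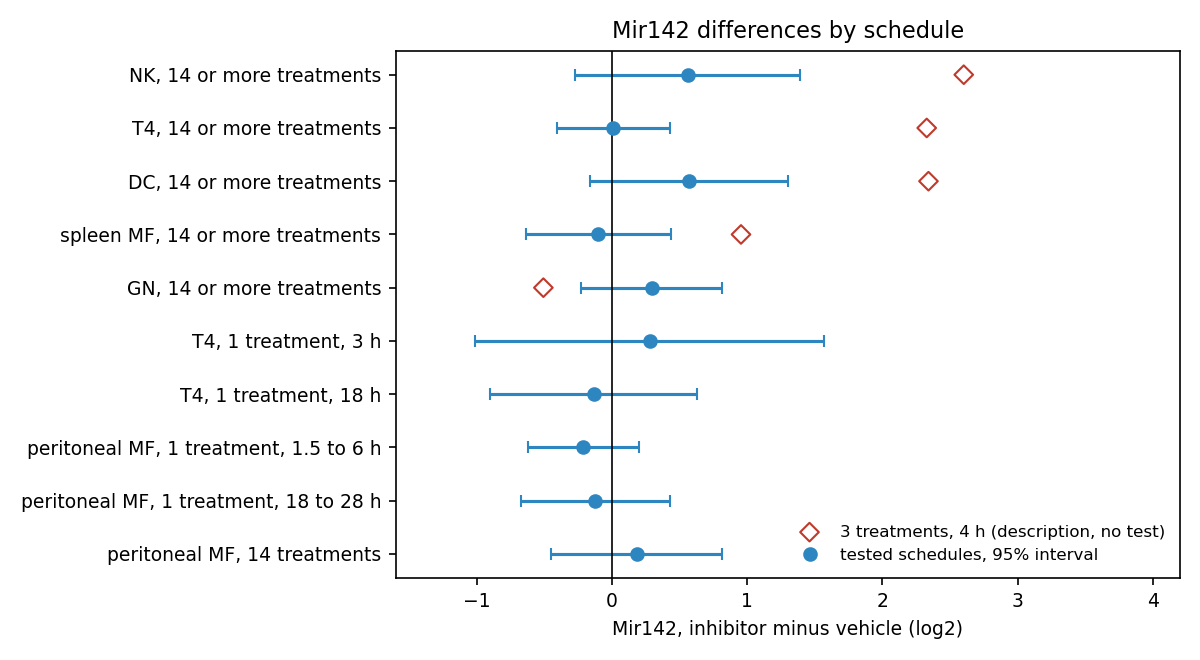
Mir142 difference of inhibitor minus vehicle (log2, x axis) for each type and schedule, which the y axis gives. Circles with bars are tested schedules with their 95% interval, and open diamonds are the untested values at 4 h. The tested estimates lie between -0.21 and 0.57 and all their intervals hold 0, and the 4 h values are 2.60 in NK, 2.34 in DC, 2.33 in T4, 0.95 in spleen MF and -0.51 in GN.

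Mir142 gave no call in the early contrasts that have vehicle arrays of early hours. In peritoneal MF collected 1.5 to 6 h after 1 treatment Mir142 had 7.10 ± 0.47 (SD, n = 12) under inhibitor and 7.40 ± 0.56 (SD, n = 6) under vehicle. The difference was -0.21 (95% interval -0.62 to 0.20, limma adjusted p = 1), in a contrast where 10 of 10869 genes passed (0.092%). Within experiments it was -0.52 in J12, 0.54 in J23 and 0.12 in J25. The interval lies below the 4 h differences of NK, T4 and DC, while that of spleen MF was smaller, at 0.95 (SE 0.45). Hour, number of treatments, tissue and compounds all differ from that schedule, and for NK, T4 and DC so does the cell type. SB00513404 was given on 7 of these 12 arrays and on no array at 4 h. The comparison therefore does not decide whether the schedules differ.

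T4 had 1 array on each side at 3 h after 1 treatment in J25, with 8.32 under SB00513404 and 8.04 under vehicle. The difference of 0.28 (SE 0.63, 95% interval -1.02 to 1.57, limma adjusted p = 1) assumes that these lone arrays vary like the other T4 groups. T4 collected 18 h after 1 treatment had 8.85 and 8.57 (SB00513404) and 9.19 (SB00526222), against 9.22 and 9.26 in J25 vehicle arrays of 14 treatments and 18 h. That fitted difference was -0.13 (SE 0.37, adjusted p = 0.999).

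Late peritoneal MF averaged 6.87 ± 0.35 (SD, n = 8) under inhibitor and 7.08 ± 0.66 (SD, n = 3) under vehicle, of which 1 array followed 1 treatment and 2 followed 14, a difference of -0.12 (95% interval -0.68 to 0.43, limma adjusted p = 0.939). After 14 treatments in J25 the inhibitor arrays had 7.60 and 7.15 (SB00513404) and 7.47 and 7.55 (SB00526222), against 7.84 and 6.66 in vehicle. The difference there was 0.18 (-0.45 to 0.82, adjusted p = 0.977). Early minus late vehicle gave 0.36 (-0.26 to 0.97, adjusted p = 1), so no call was made between early and late vehicle arrays, which also differ in the number of treatments. Single arrays by hour under SB00513404 in J23 were 7.41 at 1.5 h, 6.70 at 3 h, 6.90 at 6 h, 6.68 at 18 h and 7.35 at 28 h, with no steady course.

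In J8 the prolonged arrays were collected after 17 h or 14 h, which gives a comparison of hours with the number of treatments held fixed. It was added after seeing the data, and pools inhibitor and vehicle arrays. Spleen MF had 7.69 ± 0.25 at 17 h (SD, n = 5) and 6.77 ± 0.75 at 14 h (SD, n = 6), a difference of 0.92 with an exact two-sided permutation p of 0.0195 and 0.0584 after adjustment over the 3 types. NK had 8.91 ± 0.79 and 8.36 ± 0.40 (SD, n = 4 each, exact adjusted p = 0.386) and T4 had 7.90 ± 0.69 and 7.61 ± 0.60 (SD, n = 6 each, exact adjusted p = 0.459). Means were higher at 17 h in all 3 types, and none passed after adjustment. The types largely share the same animals, so they are not separate observations. Arrays of the pH 3 vehicle were collected at 14 h only. The lowest spleen MF array at 14 h (5.78) is among those that stood apart, as are NK and T4 arrays of both hours.

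Vehicle acidity gave no call: pH 3 minus plain vehicle was -0.21 in spleen MF, -0.02 in T4 and 0.26 in GN (limma adjusted p = 1, 1 and 0.924). Taken 1 compound at a time, 0 of 22 contrasts with vehicle passed for Mir142, and the compounds were set against each other in 32 pairs at matched schedules, each adjusted over all genes. The share of genes that passed against vehicle was 0.00925% for SB00526221 in DC and 0% for the other compounds in DC. Of these 32 pairs 1 passed: in T4 SB00526228 minus SB00526222 was 2.2 (SE 0.52, 95% interval 1.12 to 3.27, limma adjusted p = 0.0165, 1.87% of genes passed). SB00526228 in T4 is a single array, that of animal 28 of J2 at 8.21, and SB00526222 in J2 is the array at 6.20. A single array has no spread of its own, so this p takes its spread from the other T4 groups. Dropping the experiment term gave 0.87, which did not pass (adjusted p = 0.695), and the array stands apart in markers of other cells, as given further on. Against vehicle the same array gave 1.95 (0.87 to 3.02, adjusted p = 0.0529, 1.68% of genes passed).

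SB00526228 did not pass in the other types where it had arrays, and its estimates there differed in sign. It gave 1.08 in NK (0.05 to 2.1, limma adjusted p = 0.632, 0.0456% of genes passed), 1.45 in DC (0.19 to 2.71, adjusted p = 0.999) and 1.19 in spleen MF (-0.22 to 2.61, adjusted p = 0.649), but -0.16 in GN (-1.03 to 0.71, adjusted p = 1). SB00526226 gave 1.46 in DC (-0.14 to 3.06, adjusted p = 1) from 1 array, and SB00526222 gave 0.84 in GN (0.02 to 1.66, adjusted p = 0.459). SB00526221 gave -0.57 in spleen MF (-1.28 to 0.13, adjusted p = 0.942, 0.164% of genes passed). In NK SB00526228 minus SB00526221 and SB00526228 minus SB00526222 did not pass for Mir142, with 0.0183% of genes passing in each. The doses are not known here, so compounds could not be matched for dose.

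Animal 28 of J2, given SB00526228 in 14 treatments and collected after 14 h, had high Mir142 in 4 cell types, at 8.46 in NK, 8.21 in T4, 8.19 in DC and 10.69 in GN. Its T4 array stood apart in the markers of other cells. The 6 granulocyte markers averaged 9.41 there, against 5.70 to 5.95 in the other prolonged and vehicle T4 arrays of J2. Ly6g, which marks granulocytes, was at 10.16, against 5.42 to 6.07, and Flt3, which marks dendritic cells, at 9.46, against 6.03 to 6.34. Since Mir142 is high in granulocytes, these levels move with the T4 value, and their part in it was not tested.

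The NK and DC arrays of the same animal did not show this. Granulocyte markers averaged 6.09 in its NK array, against 5.74 to 6.10 in the other J2 arrays, with 0 of 6 above the array median. In its DC array they averaged 5.90, against 6.18 to 7.72, again with 0 of 6 above the median. Mir142 was the highest of the prolonged and vehicle J2 arrays in both.

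The same lists were read in the 4 h arrays of J2. In NK the granulocyte markers averaged 5.96 at 4 h (range 5.74 to 6.11), against 5.79 in vehicle (5.74 to 5.84), with 0 of 6 above the array median. In T4 they averaged 5.83 at 4 h (5.75 to 5.90), against 5.84 in vehicle, also with 0 of 6 above the median. The DC arrays had 6.17 at 4 h (5.85 to 6.49), against 6.28 in vehicle (6.18 to 6.38), with 0 of 6 above the median. At 4 h the average of these markers was above vehicle in NK and slightly below it in T4 and DC. Their part in the 4 h values of Mir142 was not tested.

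Macrophage marker lists averaged higher at 4 h than in J2 vehicle in the types given here. The 6 markers of red pulp macrophages averaged 6.76 in NK at 4 h (6.35 to 7.19, 2 of 6 above the array median), against 6.15 in vehicle (6.08 to 6.22, 1 of 6). In T4 they averaged 6.10 (5.86 to 6.38) against 5.79, and in DC 8.19 (7.97 to 8.41) against 7.04 (6.87 to 7.20). The general macrophage list averaged 7.46 in NK (7.15 to 7.70) against 7.14 (7.05 to 7.24), and in T4 7.32 (6.69 to 8.7) against 6.69. The part of these markers in the Mir142 values was not tested.

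Arrays of different cell types from 1 animal were compared over animals outside the 4 h group, in 10 pairs of types, a comparison added after seeing the data. Mir142 in NK and in DC went together over 12 animals of J2, J3 and J6 (r = 0.93, permutation p = 2e-05, the smallest that the permutations could give, adjusted p = 0.0002; rho = 0.94, adjusted p = 0.0002). Without the 2 animals farthest from the NK median r was 0.89, and without animal 28 it was 0.93. The relation held within J2, the only experiment with 6 or more such animals, with r = 0.95 over 7 animals (exact permutation p = 0.000794), 0.75 without the 2 farthest animals and 0.86 without animal 28 (n = 6, exact permutation p = 0.00556). Of these J2 animals the vehicle ones, at 6.24 and 5.90 in NK and 6.40 and 6.09 in DC, lay below every inhibitor animal in both types. The permutations held neither treatment nor experiment fixed, so these p-values do not separate the animal from either. An animal with high Mir142 in NK thus tended to have high Mir142 in DC, within J2 and over the pooled animals.

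The T4 values of these animals fell into separate clusters, so no pooled r is given for pairs with T4. Of the 14 animals with NK and T4 arrays, 5 had T4 values of 6.20 to 6.43 and 9 had 7.49 to 8.6. The lower cluster holds animals of J2 and J3, and the higher one holds animals of J6 and J8 and animal 28 of J2. Over the 9 animals of the higher cluster NK and T4 had r = 0.66 (exact permutation p = 0.0483, rho = 0.67, p = 0.0589, r = 0.71 without the 2 farthest), and over the 7 animals of J8 r was 0.71 (exact permutation p = 0.0726). T4 and spleen MF had r = 0.50 over the 9 animals of their higher T4 cluster (exact permutation p = 0.195) and 0.21 within J8 (n = 9, exact p = 0.539). These p-values within clusters and within J8 were not adjusted for the number of pairs. The clusters were cut at the widest gap in the same T4 values that were then correlated. Values within clusters are therefore a description, and their p-values do not test a relation within animals.

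NK and spleen MF had r = 0.62 over 14 animals (permutation adjusted p = 0.0376, rho = 0.64, adjusted p = 0.0344), but 0.46 without the 2 farthest animals and 0.61 within J8 (n = 6, exact permutation p = 0.15). DC and spleen MF did not pass (r = 0.52, n = 13, permutation adjusted p = 0.114). No pair with granulocytes passed: r was -0.21 with NK (n = 6, exact permutation adjusted p = 0.818), -0.37 with DC (n = 10, permutation adjusted p = 0.403) and 0.19 with spleen MF (n = 8, exact permutation adjusted p = 0.794).

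**Figure D5:**
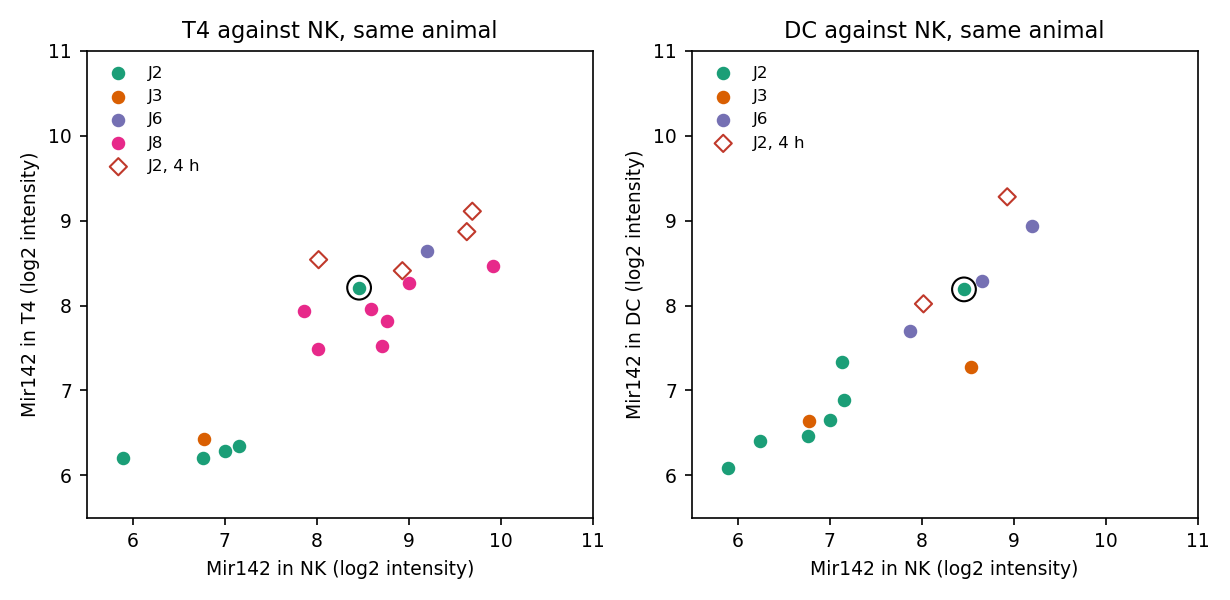
Mir142 level (log2 intensity) in T4 (left, y axis) and in DC (right, y axis) against that in NK (x axis) of the same animal. Each point is 1 animal, coloured by experiment, open diamonds are 4 h animals of J2 and the circle marks animal 28. DC and NK levels go together within J2 over 7 animals (r = 0.95), and outside the 4 h group T4 levels fall into a cluster at 6.20 to 6.43 and one at 7.49 to 8.6.

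The genes most like Mir142 were ranked by correlation over all arrays after the mean of each type was subtracted, as a description without a test. The arrays share experiments and animals, so they are not independent points. The closest was H1f2, a linker histone (r = 0.69), followed by Mirlet7d, the gene of the microRNA let-7d (0.64), Jun, an AP-1 subunit (0.63), Btg2, an antiproliferative gene induced by stress and growth signals (0.63), and Ier2, an early response gene (0.60). Zfp36l2, an RNA-binding protein that speeds mRNA decay, had 0.59, Mir30e 0.56, Dusp1, a phosphatase that acts on MAP kinases, 0.55, the small nucleolar RNA gene Snord37 0.55 and Tsc22d4 0.54. Over all 13153 genes ranked, the median r was 0.005 and the 1st and 99th percentiles were -0.33 and 0.43.

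These likenesses did not rest on the 4 h arrays. Without them r was 0.69 for H1f2, 0.66 for Mirlet7d, 0.60 for Jun, 0.61 for Btg2 and 0.63 for Ier2 (n = 148). After the mean of each type, experiment and schedule was subtracted they were 0.52 for H1f2, 0.52 for Mirlet7d, 0.52 for Jun, 0.44 for Btg2 and 0.54 for Ier2, and 0.60 for Dusp1. The lowest r were those of Dbt (-0.56), Khdrbs1 (-0.49) and Atp5g1 (-0.48). Over the 27 NK arrays the closest were Dusp2, a nuclear phosphatase of MAP kinases in activated lymphocytes (0.87), Mirlet7d (0.86), Btg2 (0.84), H2-K2 (0.84) and St3gal4 (0.81).

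Over the 6 vehicle means of tissue and cell type the closest were R3hdm4, Oas3 and Gabrd (r of 1.00 after rounding) and Zfp276 and Ngef (0.99). The GN mean of Mir142 lay far above the other means, so this rank rests largely on 1 type. Over all arrays with type means removed, Oas3, Gabrd and Ngef had r of -0.02, 0.00 and -0.03.

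The 2 other microRNA genes in the ranking have these mature sequences, from the same RefSeq table and with seeds in capitals, shown because neither shares a seed with miR-142. Those of Mirlet7d lie on the minus strand of chromosome 13, the 5p arm at chr13:48536078-48536099 and the 3p arm at chr13:48536024-48536045.
mmu-let-7d-5p: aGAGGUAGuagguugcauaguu
mmu-let-7d-3p: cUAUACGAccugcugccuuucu
Those of Mir30e lie on the minus strand of chromosome 4, the 5p arm at chr4:120772660-120772681 and the 3p arm at chr4:120772618-120772639.
mmu-miR-30e-5p: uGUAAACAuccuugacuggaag
mmu-miR-30e-3p: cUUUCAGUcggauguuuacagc

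Mir30e had 6.99 in NK at 4 h (6.79 to 7.22, n = 5), against 6.11 in J2 vehicle (6.08 and 6.14). In T4 Mir30e had 7.37 at 4 h (6.99 to 7.69, n = 5), against 6.15 in the pH 3 vehicle and 6.10 in the plain vehicle of J2. Its 4 h minus vehicle difference was 0.87 (SE 0.26, limma adjusted p = 0.208) in NK and 1.34 (SE 0.26, adjusted p = 0.125) in T4, so it did not pass. Mirlet7d had 6.49 in NK at 4 h (6.17 to 6.99), against 5.82 in vehicle (5.78 and 5.85), and 6.71 in T4 (6.22 to 7.20), against 5.87 in the pH 3 vehicle and 6.32 in the plain vehicle.

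Of the other 296 microRNA genes on the array, most did not pass the filter on low values in NK and T4 and were not tested there. Those tested gave no call at 4 h against vehicle. Of the 78 tested in NK, 0 passed at 4 h, in a contrast where 13 of 10957 genes passed (0.119%), and of the 85 tested in T4 0 passed, where 1 of 11212 genes did (0.00892%). Their median difference was 0.12 in NK, with 59 of 78 above 0 (all genes tested had a median of -0.011 and 48.0% above 0). It was -0.03 in T4, with 37 of 85 above 0 (all genes tested had a median of 0.008). None passed in DC, spleen MF or GN either, where 0 of 10815, 2 of 11008 (0.0182%) and 5 of 10980 (0.0455%) genes passed; in DC 570 genes had an unadjusted p under 0.05. At 4 h against prolonged inhibitor in T4, 2 microRNA genes were higher, Mir30e by 1.22 (limma adjusted p = 0.0462) and Mir342 by 1.16 (adjusted p = 0.0272), where 4 of 11212 genes passed (0.0357%). Mir30e was named for its likeness to Mir142 over arrays that include these, so its call is no separate support. Hour and number of treatments cannot be told apart in this contrast.

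Genes reported as repressed by miR-142 showed no call at 4 h. Of 17 listed, 15 were measured and 12 to 14 passed the filter on low values in each spleen type, and 0 passed the test in any of them. The share of all genes that passed at 4 h was 0.119% in NK, 0.00892% in T4, 0% in DC, 0.0182% in spleen MF and 0.0455% in GN. With shares this low, 0 calls in a short list say little about its members. The median difference of 4 h minus vehicle was -0.03 in NK (1 of 13 above 0), 0.12 in T4 (12 of 13), 0.13 in DC, 0.12 in spleen MF and -0.16 in GN (3 of 12). Over all genes tested the median was -0.011 in NK, 0.008 in T4, 0.041 in DC, 0.029 in spleen MF and 0.03 in GN. Tgfbr1, a TGF-beta receptor, differed by 0.00 (SE 0.17, limma adjusted p = 0.996) in NK and by 0.14 (SE 0.20, adjusted p = 1) in T4. Socs1, an inhibitor of JAK signalling, differed by -0.03 (adjusted p = 0.971) in NK and by 0.03 (adjusted p = 1) in T4. Clic4, an intracellular chloride channel protein, had the lowest value of the list in NK at -0.55 (SE 0.13, adjusted p = 0.0932), and in T4 it had -0.33 (SE 0.17, adjusted p = 1).

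The machinery that makes and loads microRNAs, 20 genes with Drosha, Dicer1 and the Argonautes among them, had 0 calls at 4 h in any spleen type, with a median of -0.05 in NK and 0.08 in T4. Of the 10 nearest named genes beside Mir142, 3 or 4 were tested in each type and 0 passed at 4 h. The share of all genes that passed at 4 h ran from 0% in DC to 0.119% in NK, so these counts of 0 say little about either group. In NK those 4 differed by 0.26 (Rnf43), 0.02 (Septin4), -0.10 (Mtmr4) and -0.10 (Mks1). The other neighbours, Tspoap1 and Mpo among them, were not tested in NK. Mir142 differed by 2.60 there, but it was selected on its 4 h level. The neighbours therefore give no measure of how particular that value is.

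Immediate early genes, which respond to stimulation or handling within minutes, were mostly above 0 in NK, where the Mir142 difference was largest. Of 20 tested at 4 h, 15 were above 0 with a median of 0.45 (all genes tested had -0.011). Dusp2 alone passed, at 1.59 (SE 0.31, limma adjusted p = 0.0343), where 0.119% of all genes passed. Dusp2 is the gene closest to Mir142 over the NK arrays, which include those at 4 h. Its call is therefore no separate support for the Mir142 values. Dusp2 had 10.20 in NK at 4 h (9.54 to 10.73), against 8.50 in J2 vehicle (8.34 and 8.7). Btg2 had 11.09 (10.97 to 11.33) against 10.46 (10.44 and 10.48), a fitted difference of 0.59 (adjusted p = 0.208). In T4 the median of the list was 0.11 (all genes tested had 0.008), with 14 of 20 above 0 and 0 calls, where 0.00892% of all genes passed. Over all arrays the list had a median r of 0.37 with Mir142 (-0.25 to 0.63), against -0.03 for the microRNA genes ranked, 0.06 for the 14 reported targets and 0.12 for the 20 processing genes. The likeness was not particular to this list. The 6 red pulp macrophage markers had a median r of 0.35 (0.14 to 0.39) and the 6 general macrophage markers 0.26 (0.14 to 0.45).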

How the data were processed

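Intensity per probe set was deposited by the authors for all arrays, made with Affymetrix Power Tools and RMA per the submitters' processing notes. Their versions are not stated there. The values are linear, and log2 was taken without a pseudocount (lowest value 5.11). Of 24922 probe sets, 21425 had 1 gene symbol, 1399 had several and 2098 had none. The probe set with the highest mean was kept for each of 19752 genes, and 21347 gene identifiers matched the RefSeq table. 0 array pairs were identical (highest correlation 0.9969).

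Each tissue and cell type was fitted alone with limma 3.58.1 in R 4.3.3, with terms for compound with schedule and for experiment, on genes above the array median in at least 3 arrays. Two-sided moderated p-values were adjusted over all genes by Benjamini-Hochberg (threshold 0.05). Vehicle levels and the joint F test took the animal as a correlated block. Title numbers shared within an experiment were taken as 1 animal. Nothing further in the labels ties arrays to animals, and the p-values cover only the spread seen among these arrays, which may be partly technical. Replicate numbers pair nothing. Arrays stood apart when their median correlation lay over 3 median absolute deviations below that of their type. Correlations over animals used all orderings, or 100000 permutations from 10 animals on. The fits were tested on simulated data.

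Mir142, the gene lists and the tests were chosen with earlier results of these data known. The genes named are those most like Mir142 (10 highest and 3 lowest over all arrays, 5 in NK, 5 over vehicle means), list members past the threshold or with the largest NK difference at 4 h, neighbours of the gene, and Dusp2, Btg2, Socs1 and Tgfbr1. Not every such gene is described.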

Additional observations from a re-analysis of the deposited data

Results flagged for a closer look

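At 4 h against vehicle, all arrays of NK (2.60), DC (2.34), T4 (2.33) and spleen MF (0.95) lay above the vehicle of their own experiment, while all 4 GN arrays lay below it (-0.51). The difference between these types was not tested.

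For the prolonged schedule of SB00526221, 5 of 5 T4 arrays lay above the vehicle mean of their own experiment (0.18), while the single GN array lay below it (-0.44). This difference was not tested either.

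Of 19 groups of 4 to 10 arrays, 2 had an array far from the others by Dixon's criterion, which chance gives in about 1 of 20 groups. The late SB00513404 group of peritoneal MF had 1 array at 7.35, the only one collected at 28 h, with the others at 6.64 to 6.68. The early vehicle group of peritoneal MF had 1 array at 6.32, collected at 6 h in J23, with the others at 7.26 to 7.82. That array is also among those that stood apart by correlation.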

How the results depend on the processing

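Of the alternatives tried, 126 values kept their direction and their side of the threshold, 8 changed sign, 2 moved by more than the spread, 3 passed the threshold where the reported fit did not and 4 failed where it did, leaving out the fits without 1 array. None of the estimates that changed sign was called. Prolonged minus vehicle in T4 (0.01) was -0.01 after quantile normalization, -0.08 without the experiment term, -0.03 with experiment as a random block, -0.08 with array weights, -0.29 without the arrays standing apart and -0.10 without animal 28. With array weights it was -0.19 in DC, where the reported estimate is 0.57, and the peritoneal difference after 14 treatments was -0.22. The 4 h difference of spleen MF was 1.76 within J2 and 0.59 without the arrays standing apart. With no filter on low values 1 single compound passed (SB00526228 in T4, 1.95, limma adjusted p = 0.0347) and 2 compound pairs did; 0 pairs passed without the experiment term, where the T4 pair was 0.87 (adjusted p = 0.695), and 0 without the arrays standing apart, which leaves out the only T4 array of SB00526228. T4 minus peritoneal MF in vehicle was 0.65 (adjusted p = 0.2) without the experiment term. Vehicle pairs that were not called are outside these counts, and without that term peritoneal MF minus spleen MF was 0.13 (reported -1.03), NK minus peritoneal MF -0.19 (reported 1.29), DC minus peritoneal MF -0.24 (reported 0.99) and NK minus spleen MF -0.06 (reported 0.26). After quantile normalization DC minus spleen MF was 0.03 (reported -0.03), and without the arrays standing apart it was 0.15 and NK minus DC -0.14 (reported 0.30). The causes were not tested.

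Leaving out 1 array in turn called nothing. Prolonged differences ranged from -0.32 to 0.22 in T4, where 6 of 26 fits changed sign, from 0.31 to 0.93 in NK, 0.29 to 0.73 in DC, -0.29 to -0.01 in spleen MF and -0.13 to 0.48 in GN. Peritoneal ranges were -0.42 to -0.12 early, -0.42 to 0.17 late, -0.15 to 0.51 after 14 treatments and 0.06 to 0.65 for early minus late vehicle. With no block for the animal, F was 0.949 and 6 vehicle pairs passed, as with the block. A single probe set reads Mir142, so no other probe set was tried, and T4 at 3 h has 1 array on each side, so none could be left out. The number of arrays limits the precision.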
